A study of Mus musculus with 2 samples.

Results

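The Cyp3a genes of mouse liver were examined as 8 genes chosen by symbol, Cyp3a11, Cyp3a13, Cyp3a16, Cyp3a25, Cyp3a41a, Cyp3a41b, Cyp3a44 and Cyp3a59, out of 34745 genes listed. Of the 8, 5 had at least 1 read and 4 had the 10 counts over both libraries that were required for a fold change. RNA-seq was performed on liver RNA from male mice 8 to 10 weeks old after partial hepatectomy (PH), in which 70% of the liver was removed, with 1 library from miR-182-5p KO mice and 1 from WT mice. The KO mice carried the knockout on a single allele, both genotypes underwent PH, and liver was taken at day 3 after surgery, a time that the sequencing labels do not state. Neither the number of mice behind a library nor the strain of the WT mice sequenced was stated in the sources used here. With 1 library per genotype there was no replicate check, so no genotype difference was tested, and the 95% intervals cover counting error in these libraries only.

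Cytochrome P450 enzymes of the Cyp3a subfamily sit in the endoplasmic reticulum of hepatocytes, where they hydroxylate steroids, bile acids and many drugs with electrons delivered through P450 oxidoreductase. Their genes are switched on by the xenobiotic receptors PXR (Nr1i2) and CAR (Nr1i3), which pair with retinoid X receptors, and depend on the hepatocyte factor HNF4A. Cyp3a11 is the major form of adult mouse liver and is used as a readout of PXR, whereas Cyp3a41a, Cyp3a41b and Cyp3a44 are known as female-predominant genes and Cyp3a16 as a gene of fetal and neonatal liver. Partial hepatectomy makes hepatocytes re-enter the cell cycle, a state in which many metabolic genes of the liver are known to be less expressed.

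In these libraries Cyp3a11 was 2.76-fold lower in KO liver than in WT liver and Cyp3a59 was 2.46-fold lower, while Cyp3a25 and Cyp3a13 lay within 2-fold. The Cyp3a59 value is uncertain because that gene shares sequence with Cyp3a25. The remaining 4 genes had no read or, for Cyp3a44, 4 reads in 1 library. All 8 lie on chromosome 5 (GRCm38), and the authors' coordinates of each were the same in GENCODE release M21. The cluster, which spans 768 kb from chr5:145345279 to chr5:146113287, held 7 of them along with Cyp3a57 and the pseudogene Cyp3a63-ps, and Cyp3a13 lay 7.42 Mb away.

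The targeted microRNA and the promoters of 4 members are shown because the members' changes are read against them below. In the mature miR-182-5p sequence (RefSeq, GRCm38.p6, chr6:30165962-30165986, minus strand) the capitals mark the seed, bases 2 to 8. Each promoter runs 5′ to 3′ on the gene's own strand from 250 bases before to 50 bases after the RefSeq start site (GRCm38.p6), and the strand is given in parentheses. Capitals mark AGGTCA and AGTTCA nuclear receptor hexamers on either strand, the HNF4A-type words CAAAGTCCA and CAAAGGTCA, and the TATA-like words CATATAA and AATAAATA.
mmu-miR-182-5p: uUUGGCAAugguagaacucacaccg
Cyp3a11 promoter, chr5:145879805-145880104 (-): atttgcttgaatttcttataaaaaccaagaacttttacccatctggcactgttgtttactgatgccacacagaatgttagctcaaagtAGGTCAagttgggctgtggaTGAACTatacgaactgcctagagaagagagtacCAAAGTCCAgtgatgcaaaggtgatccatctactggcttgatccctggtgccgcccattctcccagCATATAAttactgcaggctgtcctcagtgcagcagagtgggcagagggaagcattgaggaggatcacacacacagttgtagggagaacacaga
Cyp3a41a promoter, chr5:145720087-145720386 (-): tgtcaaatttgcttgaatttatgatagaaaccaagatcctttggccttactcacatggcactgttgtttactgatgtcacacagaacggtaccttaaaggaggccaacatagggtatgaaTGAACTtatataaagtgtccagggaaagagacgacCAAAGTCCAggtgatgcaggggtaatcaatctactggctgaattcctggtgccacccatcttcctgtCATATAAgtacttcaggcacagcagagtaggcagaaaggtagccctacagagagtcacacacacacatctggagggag
Cyp3a25 promoter, chr5:146009568-146009867 (-): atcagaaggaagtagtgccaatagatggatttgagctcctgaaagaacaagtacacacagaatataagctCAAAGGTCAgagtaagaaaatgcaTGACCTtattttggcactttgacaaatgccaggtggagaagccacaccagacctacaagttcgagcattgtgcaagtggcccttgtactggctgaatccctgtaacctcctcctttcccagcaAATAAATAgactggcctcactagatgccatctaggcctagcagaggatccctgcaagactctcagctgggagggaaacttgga
Cyp3a59 promoter, chr5:146079008-146079307 (+): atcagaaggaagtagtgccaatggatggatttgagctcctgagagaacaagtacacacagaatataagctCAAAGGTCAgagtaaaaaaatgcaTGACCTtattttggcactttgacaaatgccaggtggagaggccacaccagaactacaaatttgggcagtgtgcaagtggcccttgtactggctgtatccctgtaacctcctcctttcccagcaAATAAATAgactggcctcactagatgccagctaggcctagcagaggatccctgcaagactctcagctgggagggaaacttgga

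The promoters of 7 members fell into 2 kinds by sequence, and that of Cyp3a13 was 64.0% to 67.3% identical to the others. Identity was counted over aligned bases with gaps left out. Across the 2 kinds, the Cyp3a11 and Cyp3a25 promoters were 65.9% identical. No unrelated promoters were aligned, so the values of Cyp3a13 have no background to be set against. The Cyp3a25 and Cyp3a59 promoters were 96.3% identical over 299 aligned bases and shared CAAAGGTCA (which contains AGGTCA), a reverse hexamer and AATAAATA in the same order. The promoters of Cyp3a16, Cyp3a41a, Cyp3a41b and Cyp3a44 were 94.3% to 99.7% identical to one another and 79.2% to 82.2% identical to that of Cyp3a11, with which they shared CATATAA. The word CAAAGTCCA stood in the promoters of Cyp3a11, Cyp3a16, Cyp3a41a and Cyp3a41b and in 0.475% of 32851 RefSeq promoters of the same length, and CAAAGGTCA stood in 0.478% of them. On either strand, AGGTCA was in 4 of the 8 genes' promoters and 16.3% of all promoters, and AGTTCA was in 3 of the 8 and 14% of all. CATATAA was in 5 of the 8 and 2.31% of all promoters, and AATAAATA in 2 of the 8 and 2.56% of all. No direct repeat of these hexamers spaced by 1, 3 or 4 bases, no everted repeat spaced by 6 bases, and no TTATGTAA (the PAR bZIP word), CACGTG (the E-box) or TTCNNNGAA (the STAT word) was found within these 300 bases in any of the 8. These matches describe letters in a short window only.

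The 7-base match to the seed of miR-182-5p, TTGCCAA, was absent from the annotated 3′ UTRs of all 8 genes, which ran from 132 to 1337 bases, and was present in 10.9% of 21039 genes with a 3′ UTR. The median 3′ UTR of those genes had 960 bases, whereas all members but Cyp3a13 had 132 to 641. With so few and mostly short UTRs, the absence cannot set the members apart from other genes. In the promoters the same letters occurred once, in Cyp3a13, at position −120 from its start site, and in 3.8% of all promoters. Cyp3a13 was one of the members within 2-fold.

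Across the whole table the libraries were of nearly equal depth, with 13247497 counts in KO liver and 13163348 in WT liver. Transcripts of 13 mitochondrially encoded proteins made up 51.7% of KO counts and 31.0% of WT counts, so fold changes were taken after TMM scaling, which limits the weight of such genes, and total-count values are given for each member and for most lists. Under total counts the median log2 fold change of the 13561 genes kept was −0.60, against 0.00 under TMM. A gene is called here where its log2 fold change reaches 1 or −1. Under TMM, 9.94% of the 13561 genes were called lower and 9.46% higher in KO liver, and under total counts 26.6% were called lower and 4.6% higher, which moved the lower share of all calls from 51.2% to 85.2%. Mir182 was not among the listed genes, so the genotype label was not checked on the targeted gene. Hepatocyte markers were abundant in both libraries, with a summed level of 56545 CPM (KO) and 56149 CPM (WT) over the 7 of 8 markers that were listed, albumin (Alb) at 339876 and 536544 counts. Of 7 listed markers of enterocytes, the other main site of Cyp3a expression, 5 were at or near 0 (Lct, Sis and Alpi without a read, Vil1 at 0 and 4 counts, Cdx2 at 0 and 1). The other 2, Apoa4 (856 and 8819 counts) and Fabp2 (249 and 733), which hepatocytes also express, were detected in both libraries.

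Cyp3a11 (ENSMUSG00000056035, chr5:145854426-145879964, minus strand), the main bile acid and drug hydroxylase of the subfamily, had 12443 counts in KO liver and 51743 in WT liver. Its level per length was 183 FPKM in KO liver and 764 FPKM in WT liver, by which it stood at place 136 among all listed genes in KO liver and at place 66 in WT liver. The log2 fold change was −1.46 (95% interval −1.49 to −1.44) after TMM scaling and −2.07 by total counts. As these are bulk samples, fewer cells that express the gene and less RNA per cell cannot be told apart.

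Cyp3a59 (ENSMUSG00000061292, chr5:146079257-146113287, plus strand), a P450 named by its sequence similarity and much less studied, had 243 counts in KO liver and 903 in WT liver. Its level was 6.93 FPKM in KO liver and 25.9 FPKM in WT liver. The log2 fold change was −1.30 (−1.51 to −1.10) after TMM scaling and −1.90 by total counts. Thus 2 of the 4 members tested were lower and 0 were higher, beside 9.94% and 9.46% of all tested genes, and 4 genes are too few for these shares to be compared. The Cyp3a59 call is uncertain, as 27.0% of its 51-base words occur in other genes, mostly in Cyp3a25.

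Cyp3a25 (ENSMUSG00000029630, chr5:145977194-146009618, minus strand), another adult liver form, had 2707 counts in KO liver and 3426 in WT liver, at 62.5 and 79.5 FPKM. Its log2 fold change was 0.25 (0.18 to 0.33) after TMM scaling and −0.35 by total counts, so its direction depended on the scaling. Cyp3a13 (ENSMUSG00000029727, chr5:137892932-137921619, minus strand), which is expressed in intestine as well as liver, had 707 counts in KO liver and 1257 in WT liver, at 18.1 and 32.3 FPKM. Its log2 fold change was −0.24 (−0.37 to −0.10) after TMM scaling and −0.84 by total counts. Neither gene passed the 2-fold limit under either scaling.

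Cyp3a44 (chr5:145773983-145805874, minus strand) had 4 counts in KO liver and 0 in WT liver, too few for a fold change. Cyp3a16 (chr5:145436309-145469723), Cyp3a41b (chr5:145558664-145584730) and Cyp3a41a (chr5:145694049-145720136), all on the minus strand, had 0 counts in both libraries. A count of 0 allows up to 3 counts, or 0.226 CPM of all counts for KO and 0.228 for WT. The female-predominant and the fetal members were thus not detectable in these male livers, apart from the 4 reads of Cyp3a44. Cyp3a41a and Cyp3a41b share 98.5% and 93.4% of their 51-base words with other genes, so reads from them may have been assigned elsewhere or dropped, and their values are uncertain. Outside the 8 genes, Cyp3a57 and Cyp3a63-ps also had 0 counts in both libraries.

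**Figure D1:**
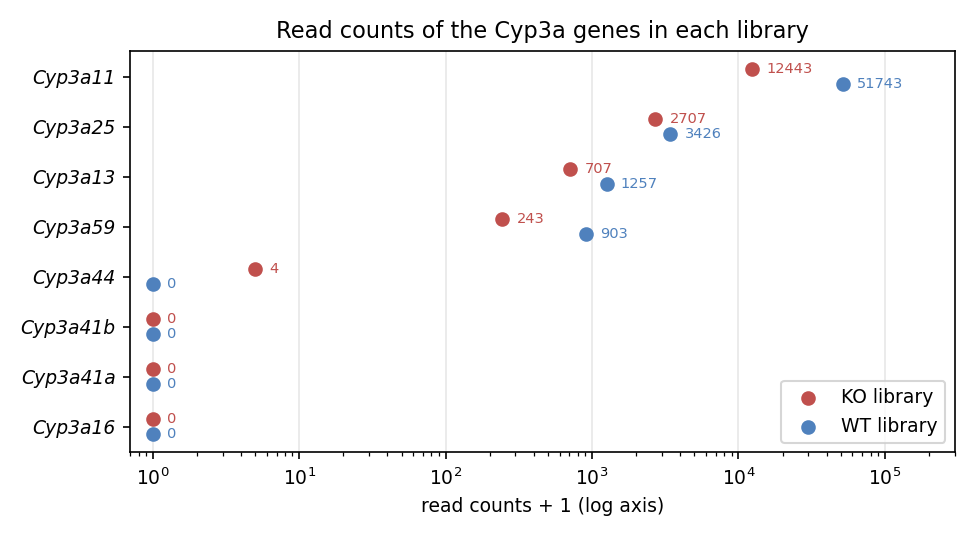
Read counts plus 1 (log axis) of the 8 Cyp3a genes, with 1 point per library and the count printed beside it. Cyp3a11 has 12443 counts in KO liver and 51743 in WT liver, and the lower 4 genes have 0 counts apart from 4 of Cyp3a44 in KO liver.

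The order of the detected members by level per length was the same in both libraries, Cyp3a11 followed by Cyp3a25, Cyp3a13 and Cyp3a59, although without replicates there is no spread to set neighbours in this order against. It also depends on the gene lengths behind the authors' FPKM, which were not checked. In WT liver Cyp3a13 (32.3 FPKM) was close to Cyp3a59 (25.9 FPKM), whereas in KO liver Cyp3a13 (18.1 FPKM) was 2.61 times Cyp3a59 (6.93 FPKM). The distance between the first and second members was smaller in KO liver, where the Cyp3a11 count was 4.60 times the Cyp3a25 count, than in WT liver, where it was 15.1 times.

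These ratios do not depend on how the libraries are scaled. The log2 change of Cyp3a11 was 1.72 below that of Cyp3a25 (difference −1.72, exact 95% interval −1.79 to −1.64), a 3.29-fold difference between the 2 genes. Cyp3a25 also differed from Cyp3a59 by 1.55 (1.33 to 1.78), and Cyp3a13 lay 1.23 above Cyp3a11 (1.09 to 1.36) and 1.06 above Cyp3a59 (0.82 to 1.31). Cyp3a13 and Cyp3a25 differed less, by −0.49 (−0.64 to −0.34). Cyp3a11 and Cyp3a59 differed by −0.16, with an interval that included 0 (−0.37 to 0.05). Of the 6 pairs, 5 therefore differed by more than the counting error.

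**Figure D2:**
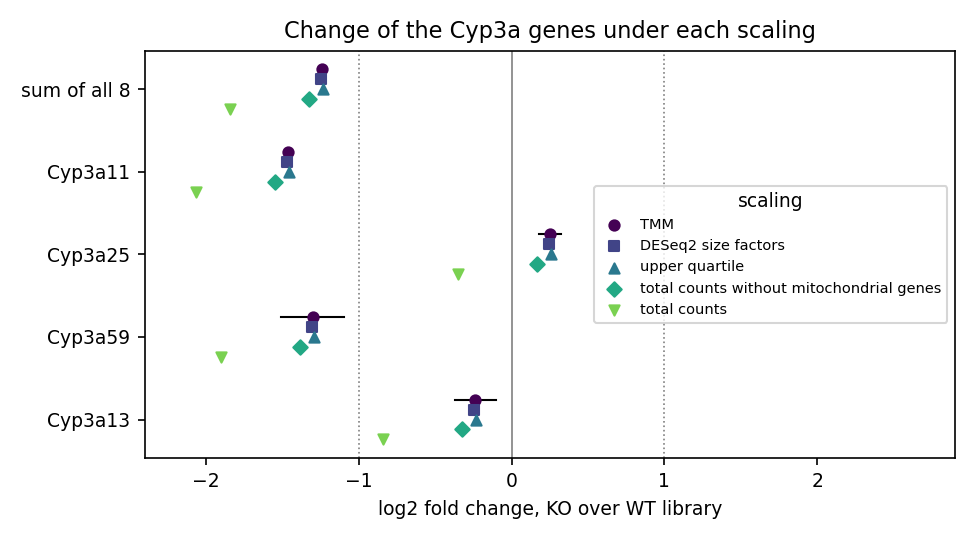
Log2 fold change, KO over WT library, of the 4 tested Cyp3a genes and of the sum of all 8 under 5 scalings (symbols); black lines are 95% counting intervals under TMM and dotted lines the 2-fold limit. Cyp3a11, Cyp3a59 and the sum lie below −1 under each scaling shown, whereas Cyp3a25 is at 0.25 under TMM and −0.35 under total counts.

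Cyp3a25 and Cyp3a59 are a close pair by sequence, with coding sequences 97.5% identical over 1509 bases and the near-identical promoters printed above, yet their changes were 2.94-fold apart. Of their 51-base words, 25.9% (Cyp3a25) and 27.0% (Cyp3a59) occur in other genes, mostly in each other, so the division of reads between them by the authors' counting is uncertain. Summed, the pair had 2950 counts in KO liver and 4329 in WT liver, a log2 fold change of 0.04 (−0.03 to 0.11) after TMM scaling and −0.56 by total counts. Cyp3a11 shares 14.0% of its words with other genes, the largest part (5.97%) with Cyp3a41a, and Cyp3a13 shares none. The coding sequence of Cyp3a11 was 95.2% identical to that of Cyp3a41a, 94.9% to that of Cyp3a44 and 92.8% to that of Cyp3a16, but 76.3% to that of Cyp3a25.

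Together the 8 genes had 16104 counts in KO liver and 57329 in WT liver, or 1216 and 4355 CPM of all counts. Summing avoids the question of how reads were split between related genes. The log2 fold change of the sum was −1.24 (−1.26 to −1.21) after TMM scaling and −1.84 by total counts. Without Cyp3a11 the sums were 3661 and 5586 counts, and the log2 fold change was −0.02 (−0.08 to 0.04) after TMM scaling and −0.62 by total counts. Under TMM the lower sum was therefore carried by Cyp3a11. Without Cyp3a13, which lies apart from the cluster, the value was −1.27.

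The make-up of the subfamily differed between the libraries. Cyp3a11 gave 77.3% of the Cyp3a counts in KO liver (76.6% to 77.9%, exact Clopper-Pearson) and 90.3% in WT liver (90.0% to 90.5%). Cyp3a25 gave 16.8% (16.2% to 17.4%) in KO liver and 5.98% (5.78% to 6.17%) in WT liver. Cyp3a13 gave 4.39% (4.08% to 4.72%) and 2.19% (2.07% to 2.32%), respectively. The share of Cyp3a59 was 1.51% (1.33% to 1.71%) in KO liver and 1.58% (1.47% to 1.68%) in WT liver, intervals that overlap. By FPKM, which takes gene length into account, the share of Cyp3a11 was 67.6% in KO liver and 84.7% in WT liver.

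**Figure D3:**
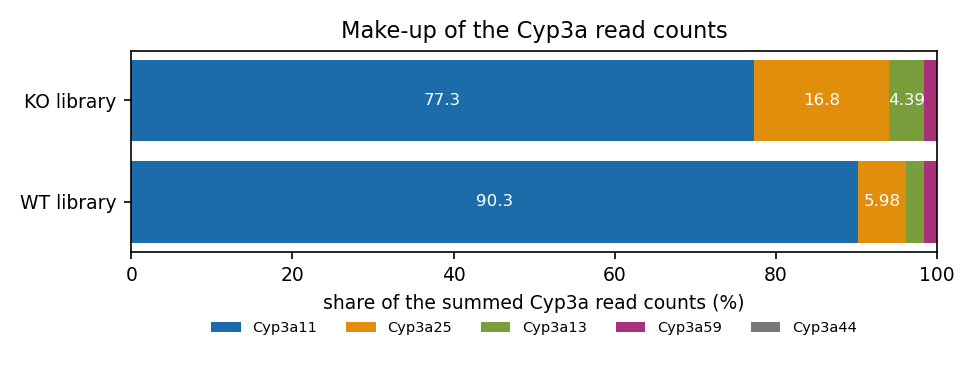
Share of the summed Cyp3a read counts (%) taken by each gene in WT and KO liver, as stacked bars that start at 0. Cyp3a11 takes 90.3% in WT liver and 77.3% in KO liver, and Cyp3a25 takes 5.98% and 16.8%.

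Among the 99 listed genes with a P450 symbol (pseudogenes and an opposite-strand transcript left out), the Cyp3a genes gave 18.2% of the counts in KO liver (17.9% to 18.4%) and 35.4% in WT liver (35.2% to 35.6%). Cyp3a11 was the P450 gene with the highest FPKM in WT liver. In KO liver it stood at place 4, behind Cyp2e1 (508 FPKM), an ethanol-oxidising P450, Cyp2d9 (373 FPKM), a male-specific steroid hydroxylase, and Cyp2d26 (197 FPKM). These 3 genes lay within 2-fold, with log2 fold changes of 0.12, 0.39 and 0.02. By counts, Cyp3a11 had the most of any P450 gene in KO liver too (12443, against 12292 for Cyp2e1). Its place in KO liver therefore depended on the measure. Genes with a symbol that begins with Cyp2, which include Cyp21a1 and Cyp26b1, had 4 higher and 8 lower of 41 tested (median 0.07), or 1 and 11 by total counts (median −0.54). Pseudogenes were kept in this tally, and the 4 higher were Cyp21a1, Cyp2j9 and the pseudogenes Cyp21a2-ps and Cyp2d37-ps. Genes with a symbol that begins with Cyp4, which include Cyp46a1, had 2 higher and 3 lower of 15 (median 0.23), or 1 and 5 by total counts (median −0.37). Of all tested genes, 9.46% were higher and 9.94% lower after TMM scaling (median 0.00). By total counts these shares were 4.6% and 26.6% (median −0.60). Among symbols that begin with Cyp2, the largest changes at 20 counts in 1 library were those of Cyp2b10 (0 and 33 counts), Cyp2c55 (28 and 358), Cyp21a1 (153 and 49) and Cyp2c38 (37 and 224). Of the Cyp4 genes, Cyp4a14 (121 and 1985 counts), Cyp4a31 (39 and 397) and Cyp4a10 (624 and 2699), PPARα-induced fatty acid hydroxylases, had log2 fold changes of −3.44, −2.74 and −1.52. The 2 higher genes with a symbol that begins with Cyp4 were Cyp46a1, a cholesterol hydroxylase (30 and 5 counts, 3.03), and Cyp4f13 (627 and 454, 1.06).

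Cyp3a11 was also set beside other abundant genes. Of 201 genes that reached 10000 counts in all, 10 (4.98%) were called lower and 27 higher, and 4, Cyp3a11 included, had a log2 fold change at or below that of Cyp3a11. Mitochondrially encoded genes, whose share of counts was larger in KO liver, were not left out of this set. The protein-coding genes closest to Cyp3a11 in level in both libraries were Ftl1, the ferritin light chain (13635 and 48685 counts, −1.24), Fgg, the fibrinogen gamma chain (16592 and 36539, −0.55), and Scd1, a fatty acid desaturase (8833 and 35900, −1.43), at distances of 0.16, 0.65 and 0.72 on the log2 CPM scale. The nearest protein-coding genes beside the cluster, Zscan25 (8 and 7 counts) and Gm5565 (0 and 0), were hardly detected.

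**Figure D4:**
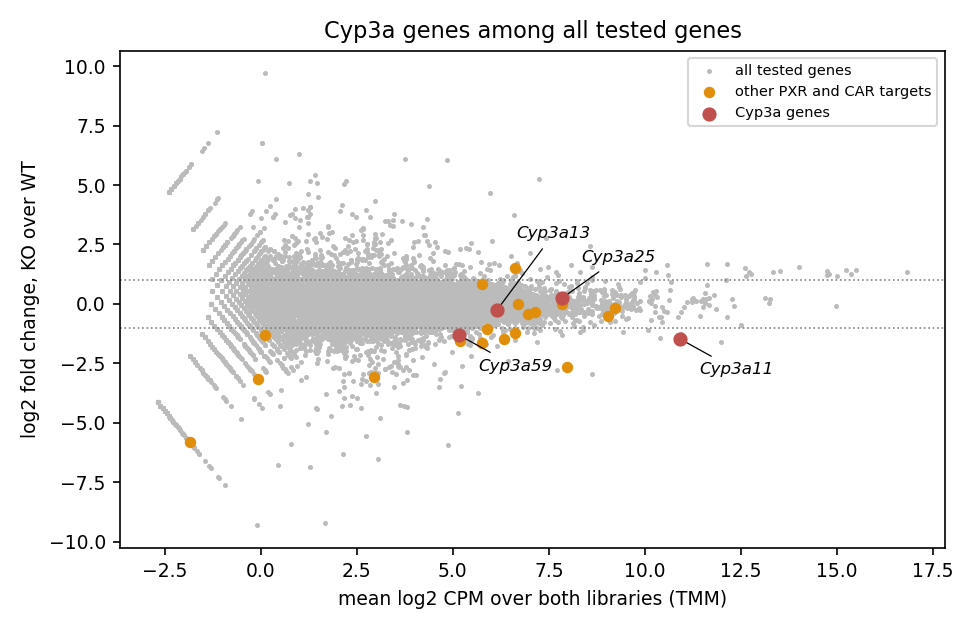
Log2 fold change, KO over WT, against the mean log2 CPM over both libraries for the 13561 tested genes (grey), the other PXR and CAR targets (orange) and the 4 tested Cyp3a genes (red), with dotted lines at the 2-fold limit. Cyp3a11, at −1.46, lies toward the abundant end of the plot.

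The genes that control or serve Cyp3a were described by lists chosen with earlier results of these data known. Of 17 regulators, 16 were tested, and 2 were higher and 0 lower, beside 9.46% and 9.94% of all tested genes. The median of the regulators was 0.15 after TMM scaling and −0.46 by total counts. PXR itself, Nr1i2, had 610 counts in KO liver and 1055 in WT liver (−0.20), and CAR, Nr1i3, had 1028 and 1809 (−0.22). Their partner Rxra (0.16) and Hnf4a (0.05) also lay within 2-fold, and Vdr had no read. The 2 higher genes were Nr1h4, the bile acid receptor FXR (1998 and 911 counts, 1.72), and Nr0b2, the corepressor SHP and a target of FXR (238 and 123 counts, 1.54). By total counts Nr1h4 alone remained past 2-fold among the regulators.

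The PAR bZIP factors, clock-output activators of detoxification genes, were led by Dbp, with 462 counts in KO liver and 62 in WT liver (3.48). Tef (0.81), Hlf (0.27) and their repressor Nfil3 (−0.33) lay within 2-fold, and the median of the 4 was 0.54 after TMM scaling and −0.05 by total counts. Of 5 redox partners, which pass electrons to P450 enzymes, 0 were past 2-fold after TMM scaling (median −0.31). By total counts 2 were lower, beside 26.6% of all tested genes. P450 oxidoreductase, Por, had 1200 counts in KO liver and 2803 in WT liver (−0.63). None of 8 heme synthesis genes was past 2-fold (median −0.08), although 1 was lower by total counts.

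Other known targets of PXR and CAR were often lower in KO liver. Of 18 tested, 10 were lower and 1 higher after TMM scaling, beside 9.94% and 9.46% of all tested genes. By total counts 12 of the targets were lower, beside 26.6% of all tested genes. The median log2 fold change of the targets was −1.13, against 0.00 over all genes, −1.73 by total counts, and −0.51 when at least 50 counts were required. Cyp2b10, the classical CAR target, had 0 and 33 counts, at least 7.30-fold lower in KO liver against a floor of 3 counts in that library, and Akr1b7, an aldose reductase relative, had 3 and 45. Cyp2c55 (28 and 358 counts, −3.07) and Gstm3, a glutathione transferase (1084 and 10258 counts, −2.65), were also among the 4 largest changes. Slco1a4, an uptake transporter (−1.57), Cyp2c29 (−1.46), Abcc3, an efflux transporter (−1.05), and Gsta2 (−1.65) were lower as well. The 7 targets within 2-fold were Cyp2c37 (0.83), Ces2a (0.02), Abcc2 (−0.01), Gstm1 (−0.16), Aldh1a7 (−0.34), Papss2 (−0.41) and Aldh1a1 (−0.52). Among the 11 targets that share under 10% of their 51-base words with other genes, 7 were lower and 0 higher. Ugt1a1, the bilirubin transferase and the 1 higher gene (1796 and 952 counts, 1.51), shares 58.1% of its words with other genes, and the 9 Ugt1a genes summed had 2407 and 4732 counts (−0.38).

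Sex-biased liver genes were described because several Cyp3a members are sex-biased and growth hormone controls them. Of all tested genes, 9.94% were lower and 9.46% higher after TMM scaling, and 26.6% and 4.6% by total counts. Of 16 female-biased genes, 9 were tested, with 4 lower and 0 higher (median −0.94), or 6 lower by total counts (median −1.50). The lower genes were Cyp2c40 (64 and 315 counts, −1.70), Cyp2c69 (22 and 85, −1.34), Abcd2 (37 and 136, −1.28) and Atp6v0d2 (80 and 265, −1.13), of which Cyp2c40 and Cyp2c69 are uncertain because they share 71.5% and 54.3% of their 51-base words with other genes. Of 15 male-biased genes, 6 were higher and 0 lower after TMM scaling (median 0.65), and 3 were higher by total counts (median 0.05). They were led by the complement inhibitor Susd4 (2.77), the steroid enzyme Hsd3b5 (2.61), the oxysterol hydroxylase Cyp7b1 (1.69) and the glucuronosyltransferase Ugt2b38 (1.33). Ugt2b38 and Hsd3b5 share 36.8% and 20.7% of their words with other genes. Among genes that share under 10%, 3 of 7 male-biased ones were higher and 0 lower (median 0.94). Of the 6 such female-biased genes, 2 were lower and 0 higher (median −0.61). The growth hormone axis had 2 higher (Cish, 2.20, and Socs2, 1.79, both STAT5 targets) and 1 lower (the repressor Bcl6, −1.09) of 9, with a median of 0.53 after TMM scaling and −0.07 by total counts. Socs2 shares 18.2% of its words with another gene. Among fetal liver genes, which set the background for the undetected Cyp3a16, 2 of 5 tested were higher, Igf2 (32 and 3 counts) and Gpc3 (12 and 6), and by total counts 1 was higher and 1 lower. Igf2 is uncertain, as it shares 75.9% of its 51-base words with another gene, and Afp was low in both libraries (48 and 47).

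**Figure D5:**
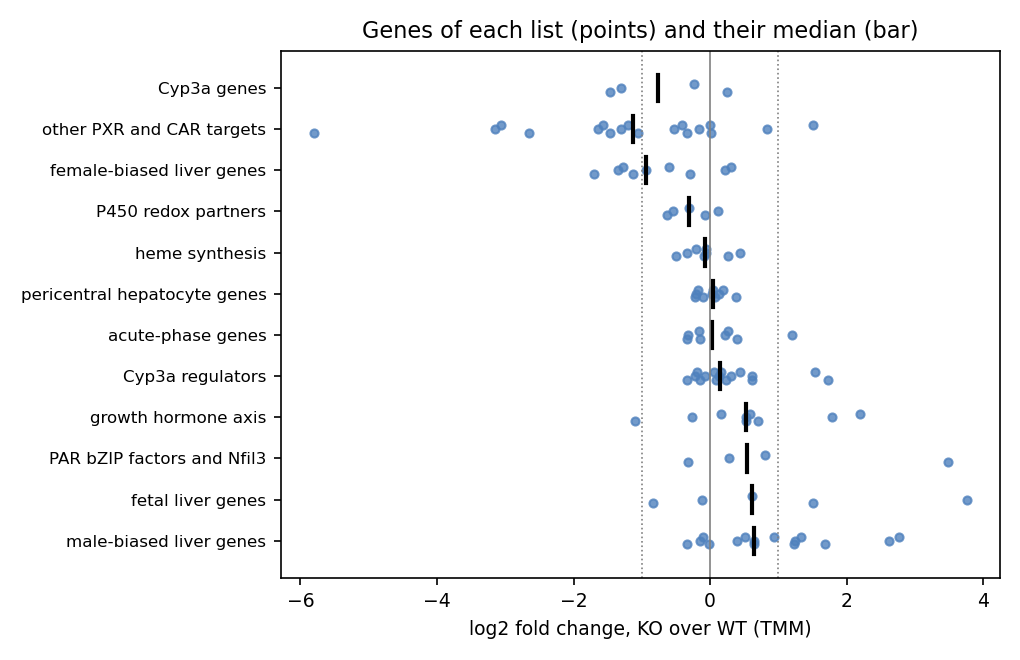
Log2 fold change, KO over WT (TMM), of each tested gene (points) in the Cyp3a genes and 11 other lists, with the median of each list as a black bar and dotted lines at the 2-fold limit. The other PXR and CAR targets (median −1.13) and the female-biased genes (−0.94) lie lowest, and the male-biased genes (0.65) lie highest.

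Markers of the cells in the tissue were set beside these values. Of all tested genes, 9.94% were lower and 9.46% higher after TMM scaling, and 26.6% and 4.6% by total counts. Cyp3a11 is expressed mainly by pericentral hepatocytes, and the 10 pericentral genes had a median of 0.03 after TMM scaling, with 0 past 2-fold under either scaling and summed levels of 2974 CPM (KO) and 2966 CPM (WT). The 10 periportal genes had 0 past 2-fold after TMM scaling (median 0.03), but 3 were lower by total counts (median −0.58). Of the hepatocyte markers, 1 of 7 was lower, Apob (1517 and 17808 counts, −2.96). Kupffer cell markers had 2 of 7 lower, Adgre1 (12 and 41 counts) and Marco (139 and 447), and stellate cell markers 2 of 7, Acta2 (25 and 77) and Col1a1 (102 and 312). Of the 6 endothelial markers 1 was lower, Lyve1 (4 and 45). None of these 3 lists had a member higher, their medians were −0.31, −0.51 and −0.49, and by total counts 3, 4 and 4 members were lower. Cholangiocyte markers had 2 of 5 higher, Krt19 (26 and 7 counts) and Krt7 (15 and 6). Of 8 acute-phase genes, 1 was higher, Saa3 (155 and 101), and 0 by total counts, with a median of 0.03 or, by total counts, −0.57. None of 3 neutrophil markers was past 2-fold, and of 3 lymphocyte markers Cd79a (12 and 4) was higher and, by total counts, 1 other was lower. Of 5 erythroid markers Alas2 (535 and 347) was higher and Hbb-bs (64 and 200) lower, and by total counts 0 were higher and 4 lower. Apoa4 (856 and 8819 counts, −2.77) and Fabp2 (249 and 733, −0.96), which hepatocytes also express, were the 2 enterocyte markers tested. The part of cell make-up, of the mitochondrial share and of the higher Dbp count in the Cyp3a values was not tested.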

How the data were processed

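Poly(A) RNA was sequenced from liver on Illumina HiSeq instruments, with 1 library per genotype. The authors deposited, for each gene, raw read counts and the FPKM computed from them, without pooling columns. Per the labels, reads were processed with HISAT2 2.0.4, StringTie and edgeR. The build that the labels name is a human one, while the deposited coordinates of the 8 genes are those of mouse GRCm38, and the annotation and strand setting are not given in the sources used here. The authors' functional annotation columns were used only for the pathway lists of the closing section.

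The software was edgeR 4.0.16 and DESeq2 1.42.0 under R 4.3.3, together with scipy 1.17.1, numpy 2.4.6, pandas 2.3.3, Biopython 1.88 and matplotlib 3.10.9 under Python 3.11.15. Genes whose counts in the 2 libraries added up to 10 or more were scaled by TMM (factors 0.812 for KO and 1.23 for WT) and given log2 fold changes with a prior count of 0.5. A change of at least 2-fold was called, with no test, since edgeR's quasi-likelihood test could not be fitted with 1 library per genotype. Depth was 13247497 and 13163348 counts, and intervals are exact 95% binomial ones that cover counting error only. CPM values use the TMM-scaled library sizes, and places are by FPKM. The steps were run on simulated counts, drawn for both libraries from the same means apart from a set of changed genes. The difference in mitochondrial share between the real libraries was not simulated, so this run does not test the scaling for it. Named genes were all members, other Cyp3a symbols, the called genes of each fixed list (the 4 largest with at least 20 counts in 1 library where over 4 were called), the 3 genes nearest to Cyp3a11 in level and the cluster's neighbours. Gsta2, Slco1a4, Cyp2c29, Abcc3, Cyp4f13, the listed members within 2-fold and the motifs were chosen after their values or sequences were seen. Promoter and miRNA sequences are from RefSeq (GRCm38.p6), in which all 8 genes were matched by symbol, and transcripts and UTRs are from GENCODE M21. The members and lists were chosen with earlier results of these data known. Alternatives were total counts, DESeq2 size factors, the upper quartile, total counts without mitochondrial genes, FPKM (pseudocount 0.1), a prior count of 5, minimums of 1 and 50 counts, an exact binomial test, and the exact test of edgeR at a coefficient of variation set to 0.2 or 0.4. These tests compare the libraries, not the genotypes.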

Additional observations from a re-analysis of the deposited data

How the results depend on the processing

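With 1 library per genotype, no replicate could be left out, and the values describe these libraries. No paired analysis was possible because a pair needs replicate libraries, and there were none. No result reversed among those whose change was called. Cyp3a11 ranged from −2.07 to −1.46, Cyp3a59 from −1.90 to −1.29, Cyp3a13 from −0.84 to −0.23 and Cyp3a25 from −0.35 to 0.26 over the alternatives. A minimum of 1 count made 1 member higher (Cyp3a44, 4 and 0 counts). With an assumed coefficient of variation of 0.4, edgeR's exact test left 0 members lower, and with 0.2 both Cyp3a11 (adjusted p = 0.0118) and Cyp3a59 (adjusted p = 0.0379) stayed called. The summed log2 fold change was −1.84 by total counts, −1.33 without mitochondrial genes and −1.74 by FPKM. The Cyp3a11 share by FPKM was 67.6% (KO) and 84.7% (WT), and without Cyp3a13 80.8% and 92.3%. Over all genes, higher and lower calls numbered 1283 and 1348 as reported, 624 and 3605 by total counts, 2269 and 2763 at a minimum of 1 count, 656 and 730 at 50, 405 and 2934 by FPKM, 488 and 444 with a coefficient of variation of 0.2, and 59 and 58 with 0.4. Calls by total counts without the mitochondrial genes numbered 1147 higher and 1525 lower. With a set coefficient of variation the numbers could only fall, since a test was added to the 2-fold rule. The cause of the other moves was not tested, apart from the fewer or more genes kept by the count minimums.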

Other observations

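The authors' annotation places Cyp3a genes in several KEGG pathways, and the other genes of these pathways, chosen after the data were seen, were counted in the same way. Of all tested genes, 9.46% were higher and 9.94% lower after TMM scaling (median 0.00). By total counts these shares were 4.6% and 26.6% (median −0.60). In steroid hormone biosynthesis 7 were higher and 15 lower of 57 tested (median 0.02), or 5 and 19 by total counts (median −0.58). In linoleic acid metabolism 1 was higher and 5 lower of 23 (median −0.13), or 0 and 8 by total counts (median −0.74), and the 4 largest changes were those of Cyp2c55, Cyp2c38, Cyp2c40 and Cyp2c29, all lower. In retinol metabolism 4 were higher and 15 lower of 63 (median −0.16), or 1 and 26 by total counts (median −0.76). In chemical carcinogenesis 4 were higher and 19 lower of 63 (median −0.28), whereas by total counts 0 were higher and 26 lower (median −0.88). The steroid, retinol and carcinogenesis lists share genes, and the 4 largest changes in each were those of Ugt1a6b (1 and 1262 counts), Ugt1a2 (0 and 95), Ugt1a5 (5 and 636) and Cyp2b10 (0 and 33). The place of Cyp2b10 rests on the prior count, and with a floor of 3 counts in KO liver its value was −2.87. Rdh9 of the retinol list (10 and 734 counts, −5.55) and Sult1e1 of the steroid list (2 and 67, −4.22) were also lower. The Ugt1a genes overlap one another, so their separate counts are uncertain, and Ugt1a1 of the same locus was higher (1796 and 952).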
